A study of Mus musculus with 11 samples.

Results

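The Obox genes and Sebox encode homeodomain proteins that were followed here in the ovaries of newborn mice lacking Sohlh1 or Sohlh2. Members were all probes annotated to Obox1, Obox2, Obox3, Obox5, Obox6 or Sebox, which gave 8 of the 45281 probes and 6 of the 19057 gene symbols on the array. Obox3 and Obox5 had 2 probes each and the other 4 genes 1 each. For a gene with 2 probes, the probe with the higher signal is called A and the other B. The array was the Illumina mouse whole-genome BeadChip, on which labelled RNA binds to probes carried on beads. Whole ovaries were taken from Sohlh1 KO newborns (4 arrays), Sohlh2 KO newborns (3 arrays, numbered 2, 3 and 4) and Wildtype newborns (4 arrays), all of the strain C57BL/6/129S6/SvEv and given no treatment by the labels. The labels give neither the targeted exons nor the number of animals behind an array, so p-values measure only the spread between these samples, which may be technical.

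SOHLH1 and SOHLH2 are germ cell transcription factors with a basic helix-loop-helix domain. They are needed for the oocyte to pass from the primordial to the growing follicle, and proteins of this class bind DNA at E-boxes. The Obox genes form a tandem family of paired-like homeobox genes that are transcribed mainly in oocytes and early embryos. Sebox is a separate paired-like homeobox gene whose RNA is stored in the mouse oocyte and used after fertilisation. A whole ovary also holds follicle cells, stroma, blood and vessels, so fewer oocytes and less RNA per oocyte cannot be told apart in these values.

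In RefSeq (GRCm38.p6) the Obox genes lay together on chromosome 7, where 51 entries carried an Obox name, 6 of them protein coding and 45 pseudogenes. Sebox lay on chromosome 11. Promoter windows, from 250 bases before to 50 bases after the gene start, were given by RefSeq for 5 of the 6 members and not for Obox6. The windows of the 2 genes that fell in both knockouts, of a family member near background and of Sebox are printed here 5′ to 3′, with every E-box CANNTG, which reads alike on both strands, in capitals. They cover chr7:15547007-15547306 (plus strand) for Obox1, chr7:15750120-15750419 (plus strand) for Obox5, chr7:15639728-15640027 (minus strand) for Obox3 and chr11:78503263-78503562 (plus strand) for Sebox.
Obox1: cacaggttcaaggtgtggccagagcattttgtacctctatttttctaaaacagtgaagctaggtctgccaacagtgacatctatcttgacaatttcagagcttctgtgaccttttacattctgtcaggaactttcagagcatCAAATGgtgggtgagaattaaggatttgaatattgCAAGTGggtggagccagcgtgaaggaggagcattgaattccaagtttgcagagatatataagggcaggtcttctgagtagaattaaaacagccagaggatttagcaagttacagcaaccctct
Obox5: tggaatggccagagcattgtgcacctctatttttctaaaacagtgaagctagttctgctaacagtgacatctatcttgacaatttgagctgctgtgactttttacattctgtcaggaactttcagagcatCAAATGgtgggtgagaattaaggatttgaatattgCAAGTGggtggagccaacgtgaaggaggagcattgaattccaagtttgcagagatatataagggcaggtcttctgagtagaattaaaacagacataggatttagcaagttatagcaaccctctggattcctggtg
Obox3: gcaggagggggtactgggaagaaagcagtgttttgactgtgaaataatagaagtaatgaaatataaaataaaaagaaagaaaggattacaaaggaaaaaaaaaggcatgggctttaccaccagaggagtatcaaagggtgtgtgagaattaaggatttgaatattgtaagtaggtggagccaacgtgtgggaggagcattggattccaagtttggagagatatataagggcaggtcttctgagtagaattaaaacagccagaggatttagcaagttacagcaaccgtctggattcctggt
Sebox: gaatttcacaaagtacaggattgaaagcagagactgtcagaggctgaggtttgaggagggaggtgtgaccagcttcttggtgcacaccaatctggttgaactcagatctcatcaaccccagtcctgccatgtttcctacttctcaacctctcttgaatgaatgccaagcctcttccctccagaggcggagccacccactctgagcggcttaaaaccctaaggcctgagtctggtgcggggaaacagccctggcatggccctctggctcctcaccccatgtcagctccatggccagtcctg
Obox1 and Obox5 each held 2 E-boxes, Obox2 held 4, and Obox3 and Sebox held 0. Among all 32851 mouse promoter windows of this length, 72.3% held at least 1 CANNTG, with a median of 1. The letters TAATTA and TAATTG, which the oocyte homeodomain protein NOBOX is known to bind, were in 0 of the 5 windows on either strand, against 5.29% and 8.0% of all windows. In a global alignment the Obox1 and Obox5 windows were identical at 88.1% of positions, Obox1 and Obox3 at 66.8%, and Obox3 and Obox5 at 70.6%. The Obox2 window shared a run of 203 identical bases with Obox1, although the windows were identical at 51.1% of positions when aligned end to end. The run opens the Obox1 window and closes the Obox2 window, so the 51.1% reflects the offset between the windows. Sebox was identical to the Obox windows at 44.5% to 46.7% of positions. These matches describe letters in the windows and no binding was measured.

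The deposited intensities had the same distribution on every array, from 98.39 to 33822.48 with a median of 151.97. No detection p-values came with them, so the 1287 probes for olfactory receptors, genes with little or no expression in ovary, served as the measure of background. The background level of an array was their 95th percentile, and it lay at 152.82 to 155.959 in Sohlh1 KO, at 154.263 to 158.761 in Sohlh2 KO and at 149.24 to 153.507 in Wildtype ovaries. Between 45.3% and 52.6% of probes exceeded it. A probe was tested where it exceeded the background level on at least 3 arrays, which kept 24462 probes, 5 of the 8 Obox and Sebox probes among them. Chip 1 held 2 Sohlh1 KO and 4 Wildtype arrays and chip 2 held 2 Sohlh1 KO and 3 Sohlh2 KO arrays, so Sohlh2 KO and Wildtype shared no chip. Both of the 2 probes for Sohlh1 were lower in both knockouts. The brighter had log2 differences of -2.57 in Sohlh1 KO and -2.56 in Sohlh2 KO ovaries (limma, adjusted p = 2.28e-08 and 6.53e-08), and the other -2.48 and -2.63 (adjusted p = 5.87e-08 and 9.2e-08). The probe for Sohlh2 was above background on 0 of 3 Sohlh2 KO arrays, but it was close to background in Wildtype ovaries as well and its difference was -0.31 (limma, adjusted p = 0.297), or 0.27 with chip as a fixed block (adjusted p = 0.587). Between the knockouts the 2 Sohlh1 probes differed by -0.01 and 0.14 and the Sohlh2 probe by 1.01 (limma, adjusted p = 0.996, 0.905 and 0.0932), and where the probes lie relative to the deleted parts is not given, so they do not check the labels of the knockouts against each other.

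Obox1 and Obox5 fell to background in both knockouts, while Sebox, Obox2, Obox3 and Obox6 were near background in all 3 genotypes. With limma on log2 values over all tested probes, and p-values adjusted by Benjamini and Hochberg, 3 of the 5 tested probes fell in Sohlh1 KO ovaries, where 14.0% of all probes fell, 15.3% rose and 29.2% were called in either direction. The same 3 probes fell in Sohlh2 KO ovaries, where 11.1% of all probes fell, 11.7% rose and 22.8% were called. On all 3, every knockout array lay below every Wildtype array, as did 13.9% of all tested probes in Sohlh1 KO and 17.5% in Sohlh2 KO ovaries. They were the probe for Obox1 and both probes for Obox5. Each of them passed the filter through its Wildtype arrays alone, so that it had to differ, and the counts are given as a description. Over all 8 probes, fitted with no filter, the median log2 difference was -0.13 in Sohlh1 KO and -0.15 in Sohlh2 KO ovaries, beside 0.02 and 0.02 over all 45281 probes in the same fit. No tested member rose in either knockout, with 3 unadjusted p-values under 0.05 in each, all of them for the probes that fell.

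**Figure D1:**
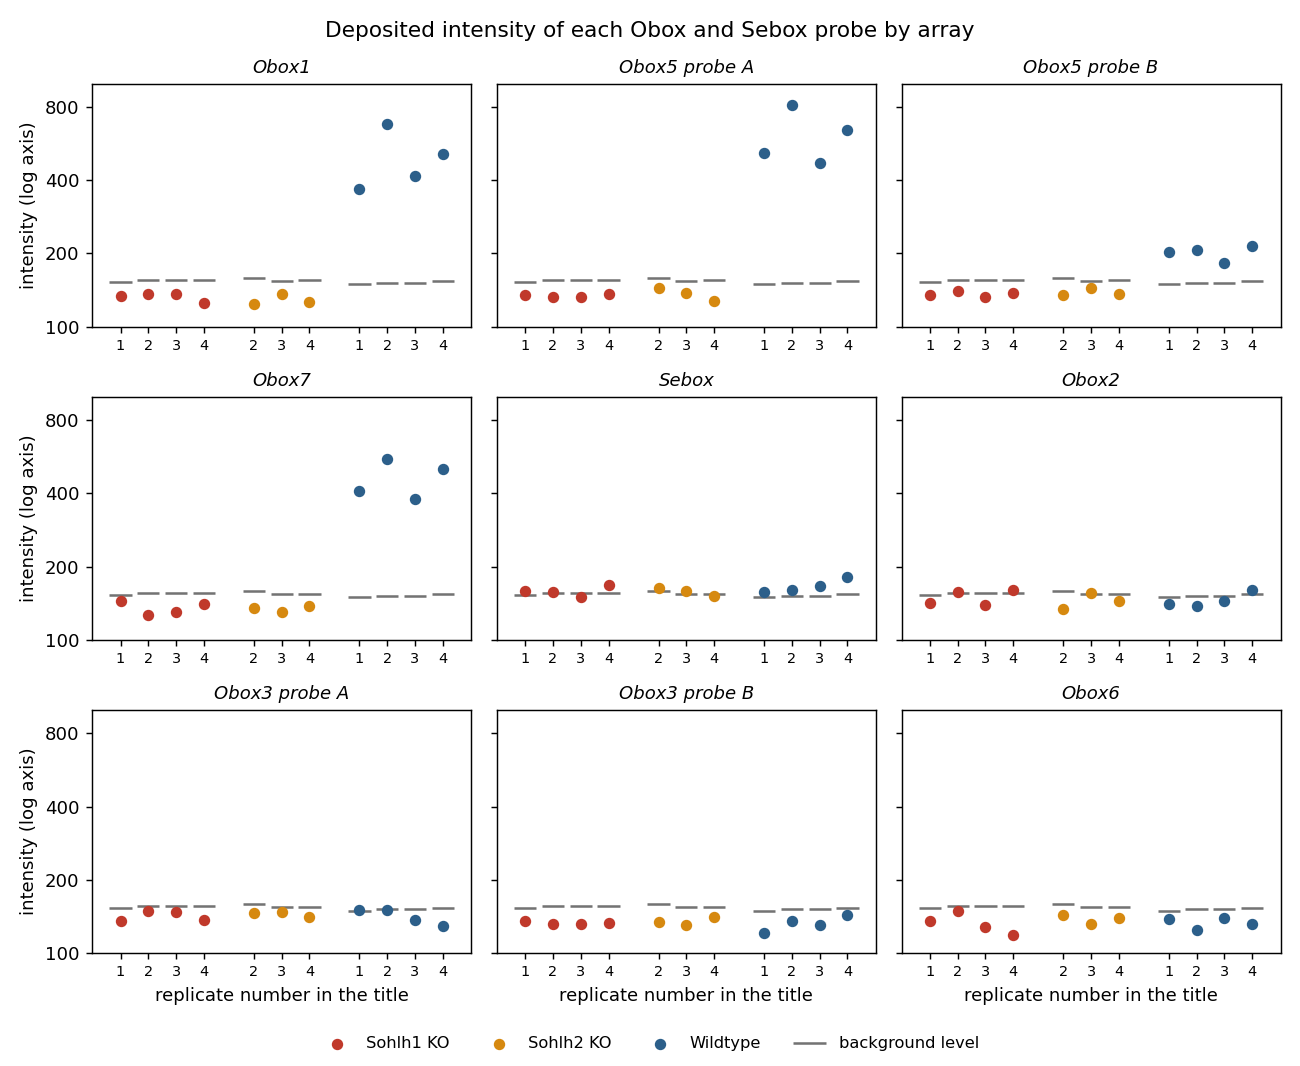
Deposited intensity (log axis) of the 8 Obox and Sebox probes and of the paralog Obox7 on each array, numbered as in the titles; 1 point is 1 array and the grey bar is that array's background level. Wildtype points of Obox1, both Obox5 probes and Obox7 lie above all knockout points, and the other 5 probes lie near the bars in all groups.

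Obox1 is a homeobox gene of the oocyte. Its intensity was 133.47, 135.65, 135.84 and 125.11 in the 4 Sohlh1 KO ovaries and 124.15, 135.79 and 126.59 in the 3 Sohlh2 KO ovaries, against 367.94, 680.6, 416.6 and 515.32 in the 4 Wildtype ovaries. Every Wildtype array lay above every knockout array, and 0 knockout arrays exceeded their background level. The log2 value after background correction averaged 4.51 ± 0.08 in Sohlh1 KO (SD, n = 4), 4.45 ± 0.10 in Sohlh2 KO (SD, n = 3) and 8.47 ± 0.52 in Wildtype ovaries (SD, n = 4). Since the knockout arrays give only a bound, Obox1 was at least 10.3-fold lower in Sohlh1 KO and at least 10.1-fold lower in Sohlh2 KO ovaries than in Wildtype ovaries. The bound sets the Wildtype mean against the lowest signal still above background on the knockout arrays, or against the dim probe's own signal where that is higher. The fitted log2 differences were -3.96 (SE 0.204, adjusted p = 5.89e-09) in Sohlh1 KO and -4.02 (SE 0.221, adjusted p = 1.42e-08) in Sohlh2 KO ovaries by limma. Without background correction the bounds were 3.11-fold in Sohlh1 KO and 3.09-fold in Sohlh2 KO ovaries, and the fitted differences -1.86 and -1.90, so the size of the drop depends on how background is treated while its direction and call do not.

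Obox5 is a second homeobox gene of the same cluster, and its probes agreed in direction but not in size. Probe A read 134.76, 132.03, 132.18 and 135.74 in Sohlh1 KO ovaries and 144.65, 137.9 and 127.89 in Sohlh2 KO ovaries, against 518.78, 816.12, 469.6 and 645.74 in Wildtype ovaries. The knockout and Wildtype arrays did not overlap, and all 7 knockout arrays were below background. Probe A was at least 13.7-fold lower in Sohlh1 KO and at least 13.4-fold lower in Sohlh2 KO ovaries, with fitted log2 differences of -4.36 (SE 0.186, adjusted p = 8.99e-10) and -4.28 (SE 0.201, adjusted p = 3.15e-09) by limma. Without background correction these bounds were 3.86-fold and 3.84-fold.

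Probe B of Obox5 read 134.99, 139.51, 131.81 and 136.88 in Sohlh1 KO ovaries and 135.17, 143.49 and 135.71 in Sohlh2 KO ovaries, against 202.76, 206.28, 182.02 and 214.93 in Wildtype ovaries. Its groups did not overlap either, although its Wildtype signal was close to the background level. The bound was at least 2.29-fold lower in Sohlh1 KO and at least 2.23-fold lower in Sohlh2 KO ovaries, with fitted log2 differences of -1.73 (SE 0.141, adjusted p = 6e-07) and -1.68 (SE 0.152, adjusted p = 2.27e-06) by limma. Without background correction it was at least 1.3-fold lower in Sohlh1 KO and at least 1.29-fold lower in Sohlh2 KO ovaries. Which transcripts each probe binds is not given, and the Obox paralogs and pseudogenes are close in sequence, so binding of one gene's RNA to another's probe was not tested. The bounds of Obox1 and Obox5 are for signal at their probes.

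In both knockouts these signals lay below the background level, and no difference between the knockouts passed the test. Of all tested probes, 2.10% were above background on every Wildtype and on 0 Sohlh1 KO arrays, and 2.51% likewise for Sohlh2 KO. Between the knockouts, 0 of the 5 tested Obox and Sebox probes passed limma's test, 0 had an unadjusted p under 0.05, and 0.0531% of all probes passed. The log2 difference of Sohlh1 KO minus Sohlh2 KO was 0.06 for Obox1 (95% interval -0.42 to 0.53), -0.08 for Obox5 probe A (-0.52 to 0.35) and -0.05 for probe B (-0.38 to 0.28). With both knockouts at background, these intervals describe background signal and do not compare levels of the genes.

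**Figure D2:**
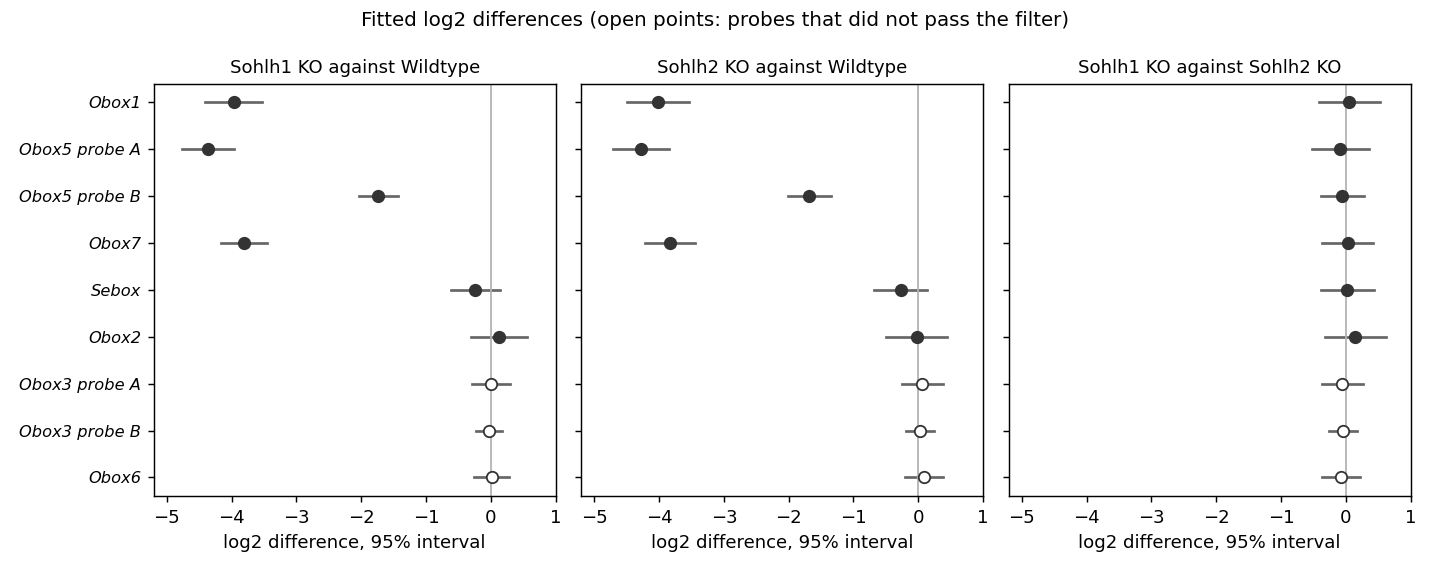
Fitted log2 difference with its 95% interval for each probe in the 3 comparisons; filled points passed the filter and open points, fitted without a filter, did not. Obox1, both Obox5 probes and Obox7 lie left of 0 in both knockouts (Obox1 at -3.96 in Sohlh1 KO and -4.02 in Sohlh2 KO), and all intervals between the knockouts cross 0.

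The chip was checked beside these results. On chip 1 alone, with 2 Sohlh1 KO and 4 Wildtype arrays, the log2 differences were -3.93 for Obox1 (limma, adjusted p = 1.34e-05), -4.37 for Obox5 probe A (adjusted p = 3.58e-06) and -1.71 for probe B (adjusted p = 0.000276). On chip 2 alone, Sohlh1 KO and Sohlh2 KO differed by 0.03 for Obox1 and -0.08 for probe A of Obox5 (limma, adjusted p = 0.979 and 0.93). With chip as a block, Sohlh2 KO against Wildtype gave -3.96 for Obox1 (adjusted p = 2.29e-05), -4.29 for probe A (adjusted p = 5.39e-06) and -1.62 for probe B (adjusted p = 0.00122), a comparison that runs through the Sohlh1 KO arrays on both chips.

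Wildtype ovaries differed among themselves in a shared way at these probes. Wildtype 2 and 4 read above Wildtype 1 and 3 for Obox1, for both Obox5 probes and for Obox7. Wildtype 2 was highest for Obox1, Obox5 probe A and Obox7, and Wildtype 4 for Obox5 probe B. The titles of Wildtype 2 and 3 carry a letter b that the others lack, and this order does not follow it. The order was not particular to Obox probes: Lhx8, Gsc and Otx1, described below, had it too, while Pou5f1 and Gdf9 did not. The SD of Obox1 on the log2 scale was 0.08 in Sohlh1 KO and 0.10 in Sohlh2 KO ovaries, both at background, against 0.52 in Wildtype ovaries.

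Sebox was near background in every genotype. Its intensity was 158.64, 156.72, 150.29 and 168.01 in Sohlh1 KO ovaries and 162.79, 158.02 and 151.86 in Sohlh2 KO ovaries, against 157.04, 160.82, 165.61 and 181.61 in Wildtype ovaries. The groups overlapped, and the probe exceeded its array's background level on 3 of 4 Sohlh1 KO, 2 of 3 Sohlh2 KO and 4 of 4 Wildtype arrays. Wildtype 4 was the highest array. The log2 value averaged 5.22 ± 0.24 in Sohlh1 KO (SD, n = 4), 5.20 ± 0.19 in Sohlh2 KO (SD, n = 3) and 5.46 ± 0.32 in Wildtype ovaries (SD, n = 4). The difference was -0.24 in Sohlh1 KO (95% interval -0.62 to 0.14, limma adjusted p = 0.335) and -0.27 in Sohlh2 KO ovaries (-0.68 to 0.14, adjusted p = 0.343). A signal this close to background leaves little room for a drop to be seen, and the result does not show that Sebox RNA was at the same level in all genotypes.

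Obox2, Obox3 and Obox6, the other Obox genes among the members, gave no difference that could be measured. Obox2 read 141.4, 157.08, 139.11 and 160.22 in Sohlh1 KO ovaries and 133.85, 155.39 and 143.77 in Sohlh2 KO ovaries, against 139.56, 137.49, 144.24 and 160.1 in Wildtype ovaries. The groups overlapped, and the probe exceeded background on 2 of 4 Sohlh1 KO, 1 of 3 Sohlh2 KO and 1 of 4 Wildtype arrays, so that it entered the test through arrays of all 3 genotypes. Its log2 difference was 0.12 in Sohlh1 KO (95% interval -0.31 to 0.56, limma adjusted p = 0.69) and -0.02 in Sohlh2 KO ovaries (-0.49 to 0.45, adjusted p = 0.955).

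Obox3 and Obox6 did not pass the filter. Probe A of Obox3 read 134.63, 149.1, 147.7 and 136.13 in Sohlh1 KO ovaries and 146.43, 147.16 and 139.9 in Sohlh2 KO ovaries, against 149.56, 149.38, 136.48 and 128.4 in Wildtype ovaries, and only Wildtype 1 exceeded its background level. Probe B of Obox3 read 131.75 to 134.64 in Sohlh1 KO, 129.73 to 140.15 in Sohlh2 KO and 121.11 to 143.65 in Wildtype ovaries, above background on 0 arrays. Obox6 read 118.07 to 148.29 in Sohlh1 KO, 131.01 to 143.57 in Sohlh2 KO and 124.66 to 139.16 in Wildtype ovaries, again above background on 0 arrays. All groups of these 3 probes overlapped. Fitted without a filter, their differences in Sohlh1 KO ovaries ran from -0.02 to 0.01 and in Sohlh2 KO ovaries from 0.02 to 0.09 on the log2 scale. A probe below background bounds the signal and does not show that a gene is silent.

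**Figure D3:**
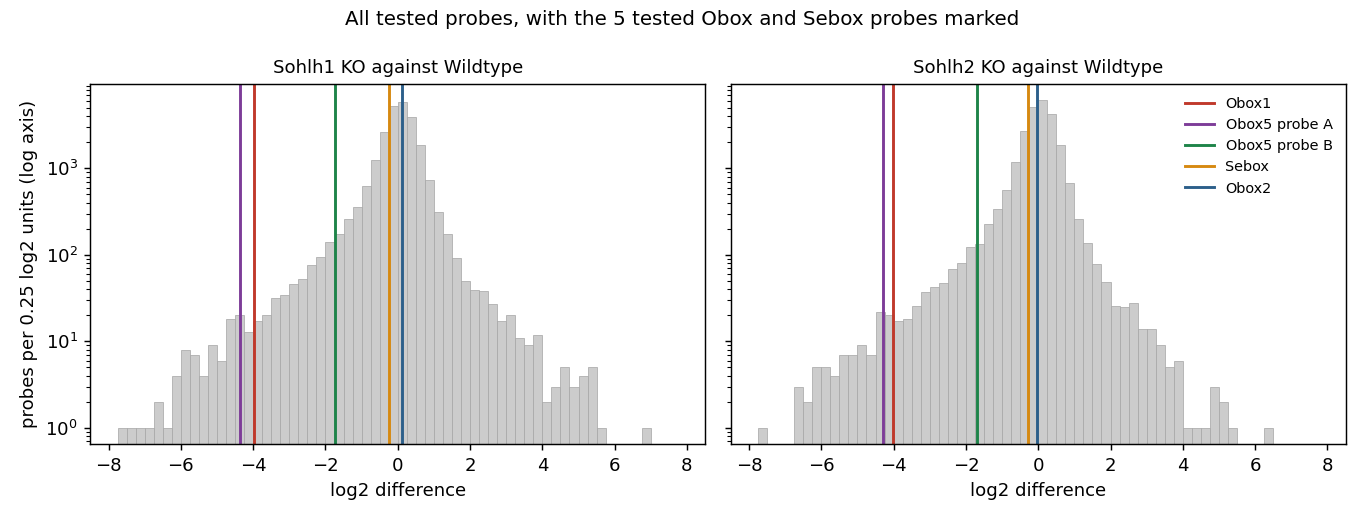
Number of tested probes per 0.25 log2 units (log axis) by their log2 difference in Sohlh1 KO (left) and Sohlh2 KO (right) against Wildtype ovaries, with lines at the 5 tested Obox and Sebox probes. Obox1 and Obox5 probe A lie in the left tail, Obox5 probe B nearer the centre, and Sebox and Obox2 at the centre.

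Other homeobox genes of the paired class showed no common direction. Of 34 such genes listed, 23 had probes and 11 passed the filter, and 12 were near background. In Sohlh1 KO ovaries 3 fell, 1 rose and 7 did not pass the test, with a median log2 difference of 0.02. In Sohlh2 KO ovaries 4 fell, 1 rose and 6 did not pass, with a median of 0.03, beside 0.05 over all tested probes for each knockout. Sohlh2 KO and Wildtype shared no chip, and with chip as a fixed block 2 of these 4 kept their call in Sohlh2 KO ovaries (Obox7 and Gsc), while Otx1 and Nobox did not. Where a listed gene had several tested probes, the brightest stands for it. Obox7, an Obox paralog of the same cluster, read 143.94, 125.97, 130.02 and 140.56 in Sohlh1 KO and 135.28, 130.53 and 138.11 in Sohlh2 KO ovaries, against 409.9, 554.32, 378.02 and 505.31 in Wildtype ovaries. Like Obox1 and Obox5 it passed the filter through its Wildtype arrays alone, so that it had to differ. It was above background on 0 of the knockout arrays and at least 9.64-fold lower in Sohlh1 KO and at least 9.43-fold lower in Sohlh2 KO ovaries (limma, adjusted p = 1.13e-09 and 3.06e-09). Without background correction these bounds were 2.94-fold in Sohlh1 KO and 2.93-fold in Sohlh2 KO ovaries.

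Gsc, a homeobox gene of the embryonic organiser, fell in both knockouts, where it was above background on 1 of 4 Sohlh1 KO and 1 of 3 Sohlh2 KO arrays, against 4 of 4 Wildtype arrays. Its knockout signal was at background, so the size of the drop is not measured, and the fit gave log2 differences of -2.11 in Sohlh1 KO and -1.91 in Sohlh2 KO ovaries (limma, adjusted p = 3.92e-06 and 2.83e-05). Otx1, a homeobox gene of the developing brain, fell with log2 differences of -0.97 in Sohlh1 KO and -0.77 in Sohlh2 KO ovaries (limma, adjusted p = 0.000326 and 0.00424), and in Sohlh2 KO ovaries it gave -0.67 with chip as a fixed block (adjusted p = 0.16). Its signal was above background on 4 of 4 Sohlh1 KO and 3 of 3 Sohlh2 KO arrays, but close to that level. Alx4, known from limb and skull development, rose in both knockouts at the 1 of its 3 probes that passed the filter. The fit gave 1.09 in Sohlh1 KO and 1.47 in Sohlh2 KO ovaries on the log2 scale (limma, adjusted p = 0.000342 and 6.31e-05). It was above background on 2 of 4 Wildtype arrays, so the size of the rise is not measured. Nobox, which is of this class too, is described with the oocyte regulators. Crxos, the homeobox gene next to the Obox cluster on chromosome 7, differed by 0.08 in Sohlh1 KO and 0.12 in Sohlh2 KO ovaries (limma, adjusted p = 0.773 and 0.691). Of its 2 probes 1 passed the filter, above background on 2 of 4 Sohlh1 KO, 1 of 3 Sohlh2 KO and 1 of 4 Wildtype arrays. A signal this close to background does not show that Crxos RNA was at the same level in all genotypes.

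The listed oocyte regulators did not all fall. Of 10 listed, 8 passed the filter, with Taf4b and Stra8 near background. In Sohlh1 KO ovaries 4 fell, 2 rose and 2 did not pass the test, with a median log2 difference of -0.74. There 14.0% of all tested probes fell and 15.3% rose. In Sohlh2 KO ovaries 5 fell and 3 did not pass, with a median of -1.14, where 11.1% of all tested probes fell and 11.7% rose. The median over all tested probes was 0.05 for each knockout. Sohlh1 and Sohlh2 are themselves on the list, and Sohlh1 is counted among those that fell in both knockouts. A fall of the deleted gene in its own knockout tells nothing about the other regulators. Nobox, a homeobox transcription factor of the oocyte, averaged 5.63 ± 0.49 in Sohlh1 KO (SD, n = 4), 5.25 ± 0.17 in Sohlh2 KO (SD, n = 3) and 6.06 ± 0.13 in Wildtype ovaries (SD, n = 4). Its difference was -0.42 in Sohlh1 KO and -0.81 in Sohlh2 KO ovaries (limma, adjusted p = 0.138 and 0.0169), and between the knockouts 0.39 (adjusted p = 0.706). The call in Sohlh2 KO ovaries was lost with chip as a fixed block (-0.70, limma adjusted p = 0.277) and without Wildtype 2 and 3 (-0.86, adjusted p = 0.0781). Lhx8, a LIM homeobox gene of the primordial oocyte, fell with log2 differences of -1.05 in Sohlh1 KO and -1.47 in Sohlh2 KO ovaries (limma, adjusted p = 0.00107 and 0.000166). It stayed above background on all 7 knockout arrays.

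Pou5f1, which encodes the pluripotency factor OCT4 that oocytes also express, and Sall4, a zinc finger gene of germ cells and growing oocytes, fell in both knockouts at each of their 2 tested probes. Of 3 Sall4 probes on the array, 2 passed the filter. The brighter Pou5f1 probe was above background on 1 of 4 Sohlh1 KO and 1 of 3 Sohlh2 KO arrays, and the brighter Sall4 probe on 2 of 4 Sohlh1 KO and 1 of 3 Sohlh2 KO arrays, against 4 of 4 Wildtype arrays for both genes. Their knockout signal was thus at or near background, and the fitted differences do not measure the size of the drop. For Pou5f1 they were -2.92 in Sohlh1 KO and -3.11 in Sohlh2 KO ovaries (limma, adjusted p = 2.16e-09 and 3.23e-09), and -2.21 and -2.23 at its other probe (adjusted p = 5.38e-08 and 1.35e-07). For Sall4 they were -3.57 in Sohlh1 KO and -3.78 in Sohlh2 KO ovaries (limma, adjusted p = 1.99e-08 and 3e-08), and -2.40 and -2.51 at its other tested probe (adjusted p = 1.25e-07 and 2.34e-07). Figla, a basic helix-loop-helix factor of the oocyte, differed by 0.02 in Sohlh1 KO and 0.15 in Sohlh2 KO ovaries (limma, adjusted p = 0.953 and 0.631). Sohlh2 rose by 0.70 in Sohlh1 KO ovaries (limma, adjusted p = 0.0127), and Foxo3, a forkhead factor of primordial follicle arrest, rose by 0.36 there (adjusted p = 0.0214) and differed by 0.05 in Sohlh2 KO ovaries (adjusted p = 0.81). Without Wildtype 2 and 3 neither call in Sohlh1 KO ovaries held (Sohlh2 0.63 and Foxo3 0.37, limma adjusted p = 0.113 and 0.123).

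**Figure D4:**
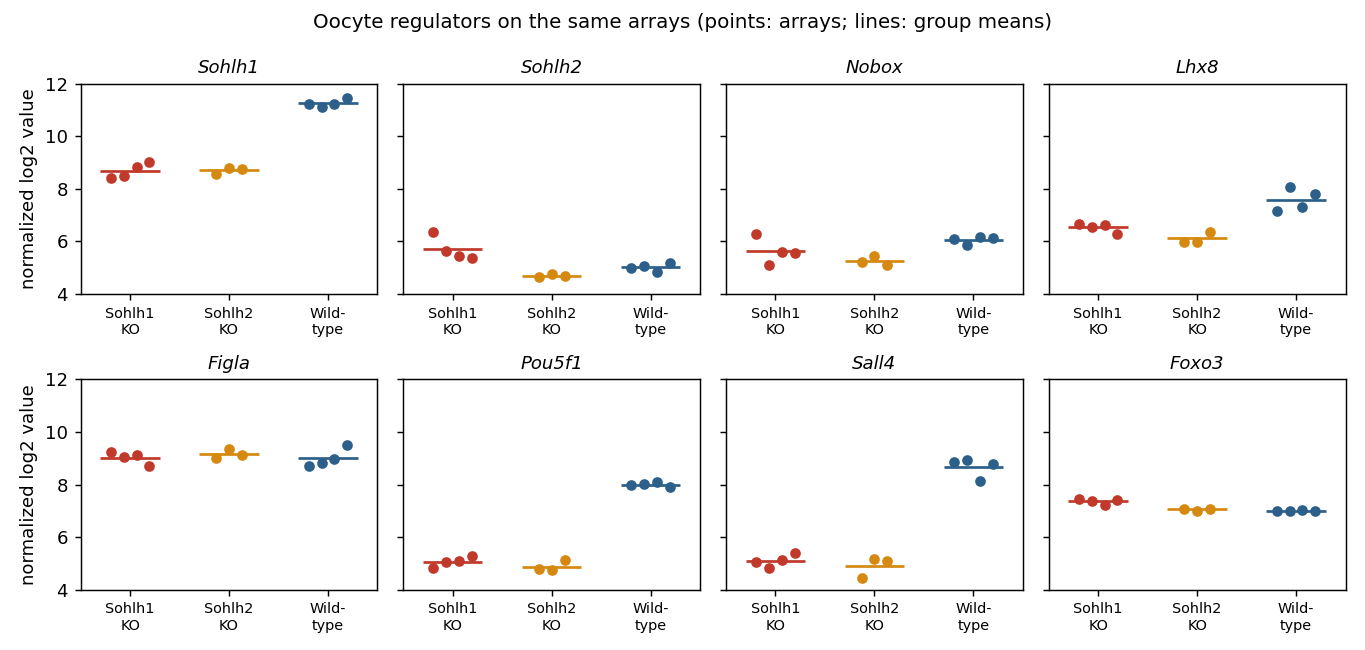
Normalized log2 value on each array (points) and group mean (lines) for the 8 oocyte regulators that passed the filter. Pou5f1 and Sall4 lie far below Wildtype in both knockouts, Lhx8 less so, and Figla overlaps in all 3 groups.

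Other listed oocyte genes fell alongside Obox1 and Obox5, in comparisons where 14.0% (Sohlh1 KO) and 11.1% (Sohlh2 KO) of all tested probes fell. Of 20 tested genes on a list of maternal and oocyte genes, 18 fell in Sohlh1 KO and 20 in Sohlh2 KO ovaries. Median log2 differences were -4.44 and -4.20. Btg4 and Kit did not pass the test in Sohlh1 KO ovaries. In Sohlh1 KO and Sohlh2 KO ovaries Btg4 differed by -0.38 and -0.46 (limma, adjusted p = 0.0616 and 0.0447), close to the threshold in both. Kit differed by -0.27 and -1.09 (limma, adjusted p = 0.293 and 0.00111). Over the alternative settings listed below, 18 to 20 of the genes fell in each knockout. Their mean log2 value lay at 7.02 to 7.22 in Sohlh1 KO, at 7.21 to 7.49 in Sohlh2 KO and at 11.06 to 11.29 in Wildtype ovaries. Gdf9, a growth factor secreted by oocytes, lay at 7.20 to 7.43 in Sohlh1 KO, at 6.94 to 7.69 in Sohlh2 KO and at 13.28 to 13.57 in Wildtype ovaries. Of the 20 genes, 4 were above background on 0 Sohlh1 KO arrays and 2 on 0 Sohlh2 KO arrays. Rfpl4, a RING finger gene, was above background on 0 arrays of both knockouts, as were Obox1 and both Obox5 probes.

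Markers of germ cells and of other cell types moved in the same comparisons. Of all tested probes, 14.0% fell and 15.3% rose in Sohlh1 KO ovaries, and 11.1% fell and 11.7% rose in Sohlh2 KO ovaries. The lists were chosen with earlier results of these data known, so their counts are a description. Of 7 tested germ cell markers, 7 rose in Sohlh1 KO and 6 in Sohlh2 KO ovaries, and Mael and Sycp3 were near background. Their mean log2 value lay at 8.69 to 9.76 in Sohlh1 KO, 8.82 to 9.11 in Sohlh2 KO and 6.17 to 6.69 in Wildtype ovaries, for the 7 tested. Pou5f1 and Sall4, not on this list, fell in both knockouts. Of 7 granulosa and pregranulosa markers, 2 fell in each knockout (Inha and Hsd17b1) and 5 did not pass the test. The 4 tested theca and steroidogenic markers and the 4 smooth muscle and fat markers fell in both knockouts, and of 4 multiciliated and oviduct markers 4 fell in Sohlh1 KO and 3 in Sohlh2 KO ovaries. Of 6 blood markers, 5 rose in Sohlh1 KO and 4 in Sohlh2 KO ovaries, with mean log2 values of 9.55 to 11.63 in Sohlh1 KO, 8.90 to 10.15 in Sohlh2 KO and 7.15 to 7.73 in Wildtype ovaries. Their part in the drop of Obox1 and Obox5 was not tested.

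Across the 11 arrays, the probes for Obox1, Obox5 and Obox7 had nearly the same pattern. Pearson's r was 0.997 between Obox1 and Obox5 probe A, 0.984 between Obox1 and probe B and 0.990 between the Obox5 probes, against 0.485 between Obox1 and Sebox and -0.10 between Obox1 and Obox2. The arrays are the same for every pair and fall into knockout and Wildtype clusters, so these values mostly restate that split and carry no test. Among 21056 candidate probes, those most like Obox1 were 1700024G13Rik (r = 0.997), Gm5065 (0.997), Obox5 (0.997), Apoa4 (0.997), an apolipoprotein, and Fgf8 (0.996), a growth factor. Those most like Obox5 probe A were Pramel25 (0.998), a PRAME-like gene, Obox7 (0.998), 1700024G13Rik (0.998), Cfap97d2 (0.998) and Fam166c (0.997). Those most like probe B were Gpr1 (0.996), Erich3 (0.995), Nlrp9a (0.993), Pramel32 (0.993) and Oosp3 (0.993), a gene for an oocyte-secreted protein.

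No probe followed Sebox or Obox2 as closely. For Sebox the nearest were Pudp (r = 0.881), the glucose transporter gene Slc2a4 (0.844), Syn3 (0.841), Chrm3 (0.833) and Hoxa11 (0.805). For Obox2 they were Rnf138 (0.894), Boc (0.893), Etv3 (0.883), Ghsr (0.877) and Madcam1 (0.872). The Sebox and Obox2 values that these correlations rest on were near the background level.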

How the data were processed

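RNA of 11 newborn ovary samples had been hybridised to Illumina mouse whole-genome BeadChips. The deposited table holds 1 intensity per probe and array, read with BeadStudio 3.2 per the submitters' processing notes. The deposited intensities had already been brought to 1 distribution, since arrays differed by at most 11.16 at the same rank, and the deposited log2 values of the series table were their log2 within 0.005; how this was done is not given in the sources used here. Probes were named through the platform annotation given for this array, where 34885 of 45281 probes had 1 symbol, 18 several and 10378 none.

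Intensities were background corrected with limma 3.58.1 in R 4.3.3 (normexp, olfactory receptor probes as negative controls, offset 16), quantile normalized and taken to log2. This replaces detection p-values, which the table does not hold. Probes that exceeded, on at least 3 arrays, the 95th percentile of these controls were fitted with 3 group means (8 residual degrees of freedom), and a probe was called at an adjusted p under 0.05 (Benjamini-Hochberg over 24462 probes). Tested on simulated data, the fit recovered 82% of probes changed by 1 on the log2 scale, in each knockout against Wildtype. Of those changed by 2 it recovered 100% in each. Of those changed by 0.5 it recovered 14% for Sohlh1 KO and 2% for Sohlh2 KO against Wildtype. In the simulated data 24262 of 24462 probes were unchanged, whereas 7145 (Sohlh1 KO) and 5572 (Sohlh2 KO) were called against Wildtype here. With so few changed probes the adjusted p is harder to pass, so the recovery of small changes does not carry over to these data. Recovery at probes near background was not tested separately. Promoter windows were RefSeq's (GRCm38.p6) and were aligned with Biopython 1.88. Named were every Obox and Sebox probe, listed regulators and paired-class genes called in either knockout, and the 5 probes most correlated with each tested member; Figla and Crxos were named after their values were seen. Members and lists were chosen with earlier results of these data known. Alternatives covered background correction, offset, normalization, filter, source table, probes per gene, chip, replicate number, samples fitted and each array left out. The precision is limited by the number of arrays.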

Additional observations from a re-analysis of the deposited data

How the results depend on the processing

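Obox1 and both Obox5 probes kept their direction and their call against Wildtype in every alternative that fitted them. Their log2 differences ran, in Sohlh1 KO and Sohlh2 KO ovaries, from -4.14 to -1.86 and -4.20 to -1.90 for Obox1, from -4.51 to -2.16 and -4.43 to -2.13 for Obox5 probe A, and from -1.88 to -0.57 and -1.82 to -0.54 for probe B, smallest without background correction; one probe per gene left out probe B. Leaving out single arrays kept 3 probes called in each knockout. At the 99th percentile of the olfactory probes, 3 Obox and Sebox probes were above background on every Wildtype array, against 4. Small differences changed sign. Obox2 in Sohlh1 KO ovaries gave -0.0161 without Wildtype 2 and 3, and in Sohlh2 KO ovaries 0.0214 with median scaling and -0.184 to 0.130259 with an array left out. Between the knockouts, leaving out an array gave -0.169 to 0.00483 for Obox5 probe A, -0.0867 to 0.0106 for probe B and -0.0785 to 0.117 for Sebox. All of these stayed short of the threshold. Counts over all probes moved more: between the knockouts 13 probes became 45 with chip as a fixed block, 2 without background correction or from the series table, 7 with no filter, 8 with offset 50, 5 with one probe per gene, 3 with only the compared groups, 4 without Wildtype 2 and 3, and 1 (without Sohlh1 KO replicate 3 or Sohlh2 KO replicate 4) to 96 (without Sohlh1 KO replicate 1) with 1 array left out. The 7145 of Sohlh1 KO against Wildtype became 4367 with one probe per gene and 3869 without Wildtype 2 and 3, and the 5572 of Sohlh2 KO became 3403, 2884 and, with chip as a fixed block, 2515. Of the regulators, the 2 that rose in Sohlh1 KO ovaries became 1 without background correction, from the series table, with the strict filter and within chip 1, 0 without Wildtype 2 and 3, and 1 to 2 with an array left out (1 without Wildtype replicate 2 or 4). Of the paired-class genes, the 1 that rose in Sohlh1 KO ovaries became 2 with chip as a fixed block, 3 within chip 1 and 1 to 2 with an array left out, and the 4 that fell in Sohlh2 KO ovaries became 2 with chip as a fixed block. The causes were not tested. With the replicate number as a block, 3, 3 and 0 Obox and Sebox probes were called and 7063, 5114 and 6 of all probes; same-numbered arrays correlated at -0.181 to 0.124, with 1 of 10 pairs over 0.1, so the numbers did not pair the arrays. Signal over background limits Sebox, Obox2, Obox3 and Obox6, and 4, 3 and 4 arrays a group limit small differences.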

Other observations

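The E-boxes of the Obox promoter windows stood at a fixed spacing, a pattern looked for after the sequences had been read. In the windows of Obox1, Obox2, Obox5 and the paralog Obox7, the E-boxes CAAATG and CAAGTG followed each other with 29 bases between them. The first began at base 143 of the Obox1 window, 240 of Obox2, 131 of Obox5 and 157 of Obox7, counted from 1 at the 5′ end. Searched on both strands, CAAATG was in 13.7% of all 32851 promoter windows, CAAGTG in 13.6% and both in 2.04%. The spaced pair was in 6 windows (0.0183%), those 4 and the windows of Gm34907 and 4932435O22Rik. The 4 Obox windows belong to paralogs, with 85.4% identity between Obox1 and Obox7 and 82.2% between Obox5 and Obox7, so their shared letters are no independent observations. The windows of Gm34907 and 4932435O22Rik were not aligned with them. The Obox3 window, with 66.8% identity to Obox1, held neither E-box. Relative to the annotated gene start the pair was not placed alike: in Obox2 the E-boxes began 11 bases before and 24 bases after it. The pair lies inside the run of 203 identical bases that the Obox1 and Obox2 windows share. These 2 windows thus differ in where the annotated start falls and not in the layout of the pair. In Obox1, Obox5 and Obox7 both E-boxes lay before the gene start. Obox1, Obox5 and Obox7 were above background on every Wildtype array, and Obox2 on 1 of 4. Whether the pair bears on these signals was not tested.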
